A study of Mus musculus with 10 samples.

Results

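Macrophages and monocytes of the pressure-overloaded left ventricle were followed through 38 genes of these cells, taken as a fixed list of symbols and matched in the deposited expression table. All 38 were found among its 45706 genes, and 36 reached 1 CPM in at least 5 of the 10 libraries and were tested, while Ly6c2 and Plac8 did not and are given by their values alone. The libraries were messenger RNA of mouse left ventricle after transverse aortic constriction (TAC), an operation that narrows the aorta and loads the ventricle with pressure. In 5 of them the mice had been given placebo (named vehicle in the treatment label) and in the other 5 osimertinib, a lung cancer drug that blocks the kinase of the EGF receptor. Both groups carry the constriction, so no unloaded heart enters any comparison. The labels give no strain, age, sex, dose or duration and do not name the animal behind each library, so a p-value here reflects the spread among libraries alone, which may be technical.

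Cardiac macrophages come from resident cells that renew themselves in the tissue, for which Lyve1, Timd4 and Cd163 are used as markers, and from blood monocytes, which are drawn in through the chemokine receptor Ccr2 and carry Ly6c2 and Plac8. Both kinds depend on the receptor Csf1r and on the transcription factor PU.1, the product of Spi1, which binds DNA at purine-rich ETS motifs. They take up dying cells, make the complement component C1q, sense antibody through Fc receptors and remodel the loaded myocardium.

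Because PU.1 is known to act at many myeloid promoters, the promoters of the list were searched for its core motif GAGGAA and a longer form, GAGGAAGT, on both strands of the 250 bases before the RefSeq transcription start (GRCm38.p6). Of the 38 genes, 30 had a window in the RefSeq table. The motif GAGGAA was found in 17 of these 30 genes (56.7%), against 6986 of 27025 genes in the whole table (25.9%). GAGGAAGT, which contains the shorter motif, was found in 3 of the 30 (C1qc, Ly6c2 and Pf4) and in 755 of the 27025 (2.79%). No window was given for Spi1, Lyve1, C1qa, Adgre1, Csf1r, Tyrobp, Cd14 and Itgb2. A match describes the letters of a window and is not a measured binding site. The windows of C1qb and C1qc are shown because these neighbouring genes had nearly proportional levels in all libraries, that of Mrc1 because it holds the motif 3 times, and that of Lyz2 because the most abundant gene of the list holds none. They are written 5′ to 3′ on the strand of the gene, with GAGGAA or its reverse complement in capitals. C1qb lies on the minus strand at chr4:136886201-136886450, C1qc on the minus strand at chr4:136892915-136893164, Mrc1 on the plus strand at chr2:14229164-14229413 and Lyz2 on the minus strand at chr10:117282273-117282522.
C1qb: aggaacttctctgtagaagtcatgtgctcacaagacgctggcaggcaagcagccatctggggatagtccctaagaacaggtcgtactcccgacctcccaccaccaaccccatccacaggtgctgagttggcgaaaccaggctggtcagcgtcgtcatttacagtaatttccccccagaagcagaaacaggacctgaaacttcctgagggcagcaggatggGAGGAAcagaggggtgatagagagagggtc
C1qc: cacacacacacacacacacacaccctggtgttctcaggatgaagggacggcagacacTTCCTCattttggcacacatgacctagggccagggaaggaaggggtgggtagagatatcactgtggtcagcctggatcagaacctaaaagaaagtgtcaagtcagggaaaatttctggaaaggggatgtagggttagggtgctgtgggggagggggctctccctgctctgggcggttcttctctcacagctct
Mrc1: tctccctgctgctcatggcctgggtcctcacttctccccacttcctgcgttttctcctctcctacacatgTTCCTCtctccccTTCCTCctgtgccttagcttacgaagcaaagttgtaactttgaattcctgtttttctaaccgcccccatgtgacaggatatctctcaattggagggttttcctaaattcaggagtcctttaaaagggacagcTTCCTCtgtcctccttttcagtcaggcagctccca
Lyz2: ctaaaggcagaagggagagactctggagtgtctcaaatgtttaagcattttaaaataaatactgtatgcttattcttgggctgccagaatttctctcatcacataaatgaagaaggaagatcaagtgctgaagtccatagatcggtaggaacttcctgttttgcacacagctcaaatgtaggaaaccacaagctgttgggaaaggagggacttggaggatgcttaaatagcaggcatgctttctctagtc

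Values are given in rescaled CPM, the deposited CPM (read counts scaled to a common total per library) divided by each library's median ratio to the average library. Differences are on the scale log2(rescaled CPM + 0.5), osimertinib minus placebo, with the moderated standard error (SE), and a gene was called when its limma p-value, adjusted over all 12350 tested genes by the Benjamini-Hochberg method, was under 0.05. Depth was 15863265 to 21309296 reads per library, of which 4515 to 11156 fell on the 38 genes. Mitochondrial transcripts and their nuclear copies took 83.0% of the reads of placebo library 5 and 45.0% to 63.7% of the other 9, and the divisor of that library was 0.4545 against 0.9257 to 1.344. Transcripts of atrial muscle were abundant in placebo libraries 1, 2 and 5 and osimertinib libraries 1, 2 and 4: the atrial light chain Myl4 reached 49.8 to 1121 rescaled CPM there and 1.15 to 2.23 in the other 4. The median difference of all tested genes was 0.27 on the deposited scale and 0.01 after rescaling, a shift of 0.26, so the calls are given on both scales.

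In the hearts given osimertinib 3 macrophage genes were higher and 1 was lower. The chemokine receptor Cx3cr1, the lysozyme gene Lyz2 and Adgre1, which encodes the macrophage surface protein F4/80, rose by 0.93, 0.54 and 0.60 on the log2 scale. Mertk, a receptor for dying cells, fell by 0.56. The other 32 tested genes were not called, among them every tested marker of resident macrophages and the monocyte receptor Ccr2. In the deposited CPM only Cx3cr1 was called.

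The 4 called genes made up 11.1% of the 36 tested, against 20.8% of all 12350 genes, of which 10.4% were higher and 10.5% lower. On the deposited scale the share was 2.78% of the list against 6.74% of all genes, nearly all of them higher (6.62%). Both shares of the list lay under the background. At an unadjusted p under 0.05 the list held 8 genes after rescaling, while 38.3% of all genes reached it; beside the 4 called these were Ccr2, Folr2, C1qb and C1qc. The signs were uneven: 30 of the 36 differences were positive and 6 negative, where 51.1% of all genes were positive, and the median of the list was 0.21 against 0.01 for all genes. The median of the list was 0.45 on the deposited scale and 0.03 in CPM computed without mitochondrial genes, their copies and haemoglobin, where all genes had medians of 0.27 and -0.17. The list lay 0.20, 0.18 and 0.21 above all genes under the 3 scalings. A scaling moves all genes of a library together, so this likeness carries no support. After rescaling the gap was 0.11 without placebo library 1 and 0.24 without placebo library 3, the extremes of leaving out each library. In the deposited CPM it was 0.05 with array weights and 0.36 with no filter on low values. None of the 36 had groups that did not overlap, against 12.5% of all genes. In bulk tissue, more cells of a type and more RNA per cell cannot be told apart.

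**Figure D1:**
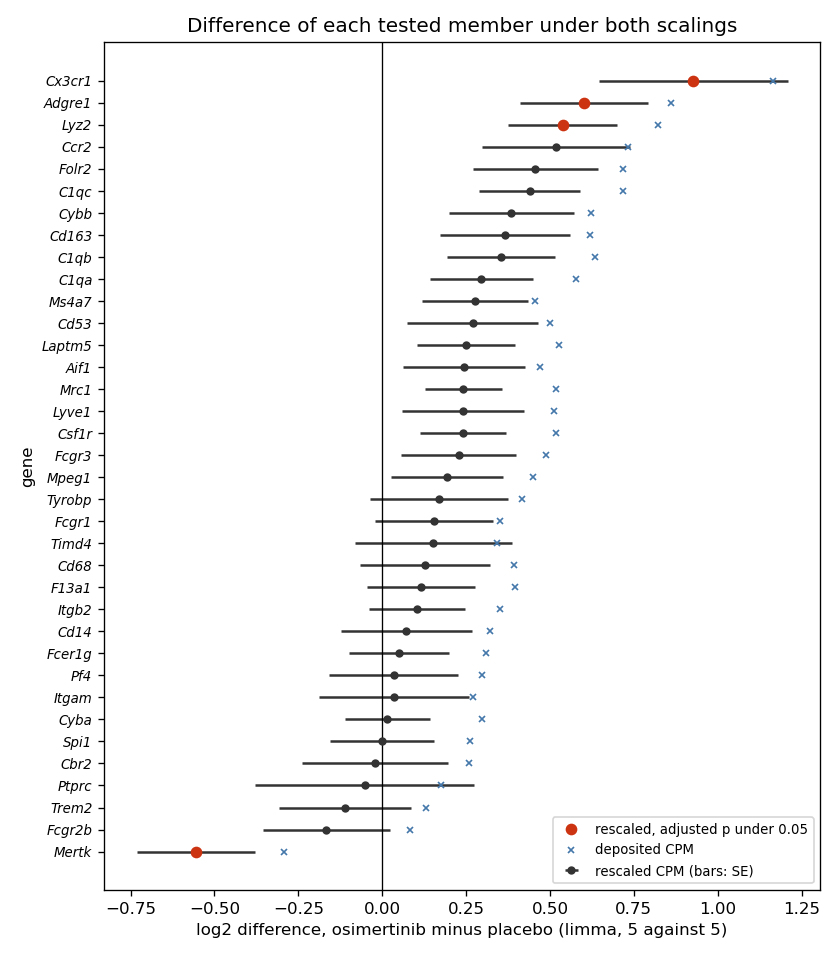
Log2 difference of each of the 36 tested genes, osimertinib minus placebo (x axis, log2(CPM + 0.5)), one gene per row. Points are rescaled CPM with bars of 1 SE, red where the limma adjusted p was under 0.05, and crosses are the deposited CPM. Cx3cr1, at 0.93, and Mertk, at -0.56, lie at the ends, and every cross lies to the right of its point.

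None of the 3 resident markers was called. Lyve1, a hyaluronan receptor of resident macrophages and of lymphatic endothelium (chr7:110850607-110863239, here and for all genes in GRCm38 as annotated by GENCODE M21), was at 9.35, 10.0, 12.7, 11.3 and 10.7 rescaled CPM in placebo libraries 1 to 5 and at 13, 9.22, 9.97, 19.5 and 14.9 in osimertinib libraries 1 to 5. Osimertinib libraries 4 and 5 stood highest and library 2 was under all placebo libraries, so the groups overlapped, with a difference of 0.24 ± 0.18 (SE, n = 5 per group; limma adjusted p = 0.350) and 0.51 in the deposited CPM (limma adjusted p = 0.347). The 4 lymphatic markers summed to between 71.1 and 108 rescaled CPM in placebo and between 75.8 and 132 in osimertinib, and 1 of them, Prox1, was called higher (0.57 ± 0.15, limma adjusted p = 0.0284; 0.83 with a limma adjusted p of 0.0962 in the deposited CPM; called in 7 of the 10 fits that left out 1 library, not without placebo 1, osimertinib 3 or osimertinib 5). Prox1 is known in the heart from lymphatic cells and from cardiomyocytes, and the part of these cells in the Lyve1 values was not tested.

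Timd4, a phosphatidylserine receptor (chr11:46810800-46844332), was scarce, at 0.608, 0.985, 0.963, 0.983 and 1.45 rescaled CPM in placebo and at 1.13, 0.709, 0.767, 1.9 and 1.46 in osimertinib. These values rest on 13 to 38 reads per library, and osimertinib libraries 4 and 5 lay above every placebo library while the other 3 lay within the placebo range (difference 0.15 ± 0.23, limma adjusted p = 0.663). Cd163, the receptor for haptoglobin-bound haemoglobin (chr6:124304656-124330527), was at 4.58, 4.46, 6.99, 8.13 and 4.75 in placebo and at 7.81, 7.19, 5.51, 10.3 and 6.81 in osimertinib. Placebo libraries 3 and 4 fell among the osimertinib values, and the difference was 0.36 ± 0.19 (limma adjusted p = 0.184) and 0.62 in the deposited CPM. Osimertinib library 4 was the highest of all 10 for Lyve1, Timd4 and Cd163 alike.

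Of the recruited markers, Ccr2 could be tested and was not called. This receptor for monocyte attractants (chr9:124101950-124113557) was at 1.92, 2.95, 1.17, 1.31 and 2.07 rescaled CPM in placebo, and at 3.46, 2.23, 3.02, 3.51 and 2.05 in osimertinib. Osimertinib libraries 1, 3 and 4 lay above every placebo library and libraries 2 and 5 did not. The difference was 0.52 ± 0.22 (limma adjusted p = 0.104) and 0.73 in the deposited CPM (limma adjusted p = 0.138). Leaving out each library in turn gave limma adjusted p between 0.0669 and 0.194.

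Ly6c2, the surface antigen of inflammatory monocytes, was at 0.608, 0.563, 0.915, 1.31 and 0.413 rescaled CPM in placebo and at 0.836, 0.963, 0.816, 0.753 and 0.325 in osimertinib, with the osimertinib values inside the placebo range except for library 5. It shares 21.4% of its 31-base words with Ly6c1, an endothelial neighbour at a mean of 287 rescaled CPM, so its reads are uncertain. Plac8, a cysteine-rich protein of monocytes, was at 0.187, 0.141, 0.811, 0.262 and 0.103 in placebo and at 1.07, 0.304, 0.479, 0.551 and 0.432 in osimertinib. These are 1 to 16 reads per library in placebo and 6 to 18 in osimertinib. Placebo library 3 stood above 4 of the 5 osimertinib libraries and the remaining placebo libraries lay under all of them, at a depth too low for the test.

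The balance of resident over recruited markers was taken within each library. It was the mean log2(rescaled CPM + 0.5) of Lyve1, Timd4 and Cd163 minus that of Ccr2, Ly6c2 and Plac8. The scaling between libraries enters through the pseudocount of 0.5, near which Ly6c2 (0.325 to 1.31) and Plac8 (0.103 to 1.07) lie. This balance thus depends on the scaling, and it was not computed in the deposited CPM. It was 1.64, 1.68, 1.85, 1.97 and 2.11 in placebo and 1.49, 1.61, 1.38, 2.21 and 2.27 in osimertinib. The means were 1.85 ± 0.199 and 1.79 ± 0.417 (SD, n = 5 each), a gap smaller than either SD. In rescaled CPM the osimertinib libraries lay on both sides of the placebo range, 3 below it and 2 above it, and these positions may differ under another scaling. Lyve1 minus Ccr2 alone had a mean of 2.29 ± 0.553 in placebo and 2.02 ± 0.421 in osimertinib, again within the spread. No test was made of these scores, since the genes were chosen with results known.

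**Figure D2:**
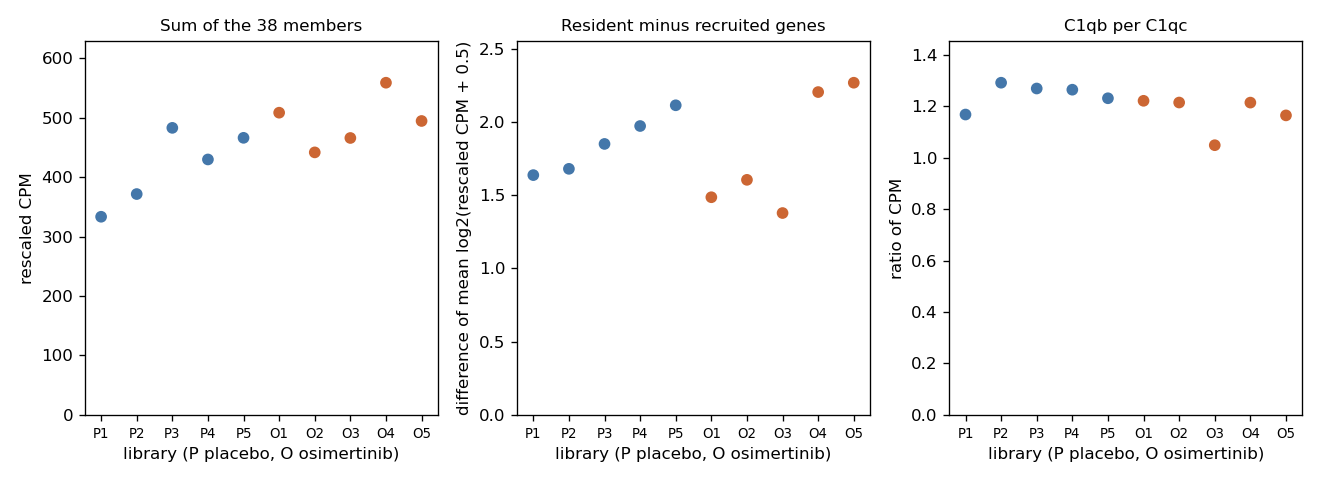
Per library (x axis, P placebo and O osimertinib, numbers as in the labels), the sum of the 38 genes in rescaled CPM, the resident minus recruited difference of mean log2(rescaled CPM + 0.5), and the ratio of C1qb to C1qc. The sums run from 333 to 483 in placebo and from 442 to 559 in osimertinib, the resident minus recruited values of osimertinib lie below and above the placebo values, and the C1q ratio stays between 1.05 and 1.29.

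**Figure D3:**
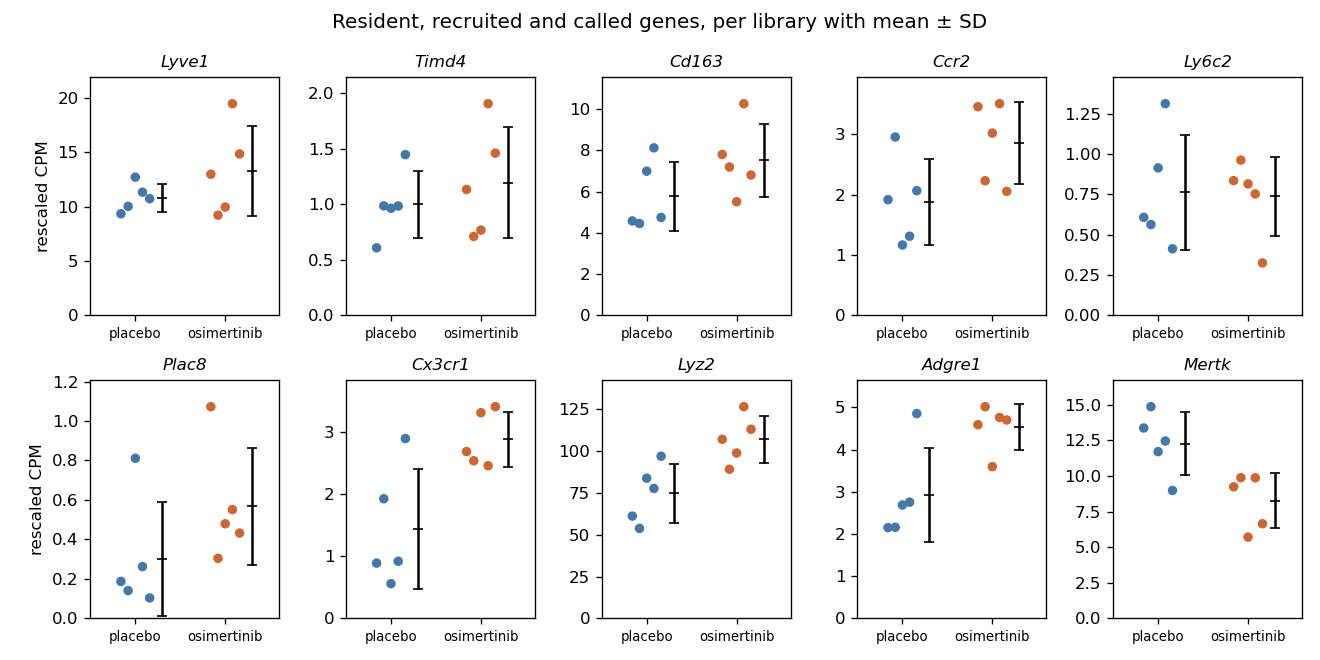
Rescaled CPM (y axis, linear) of the 3 resident, 3 recruited and 4 called genes, one point per library with the mean and SD of each group of 5 beside them. In the 4 called genes 1 placebo point, library 5, lies inside the osimertinib range.

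A further 6 genes are associated with resident cells, and none was called. Mrc1, the mannose receptor, ran from 12.0 to 17.8 rescaled CPM in placebo with a median of 13.9 and from 15.4 to 18.5 in osimertinib with a median of 17.1. Its difference of 0.24 ± 0.11 had a limma adjusted p of 0.137, and without placebo library 5, whose 17.8 was the highest of the placebo values, it was 0.32 with a limma adjusted p of 0.0486. Folr2, a folate receptor of perivascular resident macrophages, ran from 3.28 to 6.69 in placebo and from 6.05 to 9.57 in osimertinib (0.46 ± 0.19, limma adjusted p = 0.0925). Ms4a7, a membrane protein of tissue macrophages, gave 0.28 ± 0.16 and F13a1, a coagulation factor subunit, 0.12 ± 0.16.

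The reductase gene Cbr2 and the chemokine gene Pf4 had differences near 0, of -0.02 ± 0.22 and 0.03 ± 0.19. Cbr2 differed in sign on the deposited scale, at 0.26, and its highest library was placebo 5, at 26.1 rescaled CPM. Pf4 is shared between macrophages and platelets. The 3 tested platelet genes fell: Itga2b by 1.01, Ppbp by 1.10 and Gp1bb by 0.78 on the log2 scale, with limma adjusted p of 0.00867, 0.0245 and 0.0335. Itga2b was called without each of the 10 libraries, Ppbp in 8 of 10 such fits (not without placebo 2 or osimertinib 5) and Gp1bb in 4 (without placebo 1, placebo 4, osimertinib 1 or osimertinib 4). In the deposited CPM none of these platelet genes was called, and the 4 listed platelet genes, 1 of them too low to test, summed to 5.94 to 9.79 rescaled CPM in placebo and 2.56 to 4.53 in osimertinib. Their part in the Pf4 value was not tested.

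Among the receptors that keep and place these cells, Cx3cr1 was called and Csf1r was not. Cx3cr1, the receptor for fractalkine (chr9:119901616-120069879), was at 0.888, 1.92, 0.557, 0.918 and 2.89 rescaled CPM in placebo and at 2.68, 2.53, 3.31, 2.45 and 3.40 in osimertinib. The osimertinib libraries lay close together, and placebo library 5 was the only placebo library within their range. The means were 1.44 ± 0.961 and 2.88 ± 0.446 (SD, n = 5 each), a difference of 0.93 ± 0.28 (limma adjusted p = 0.0389) and of 1.16 in the deposited CPM (limma adjusted p = 0.0118). It rests on 11 to 41 reads per library in placebo and 45 to 69 in osimertinib.

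The call for Cx3cr1 stood when placebo library 5 (1.19, limma adjusted p = 0.0173) or osimertinib library 4 (0.97, limma adjusted p = 0.0453) was left out and was lost for each of the other 8, where limma adjusted p lay between 0.0504 and 0.0969. On the deposited scale it stood in all 10 such fits, with limma adjusted p up to 0.0496. Csf1r, the receptor for the macrophage growth factors, ran from 20.9 to 30.4 rescaled CPM in placebo with a median of 24.3 and from 26.0 to 37.2 in osimertinib with a median of 28.0. The groups overlapped, and the difference was 0.24 ± 0.13 (limma adjusted p = 0.185).

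The 3 genes of C1q, which form 1 protein complex that starts the classical complement pathway, lie side by side on chromosome 4 and were not called. C1qa (chr4:136895917-136898803) was at 25.3, 28.1, 44.3, 41.5 and 38 rescaled CPM in placebo, and at 41.8, 38.3, 42.4, 46.8 and 44.0 in osimertinib. C1qb (chr4:136880129-136886187) was at 21.1, 25.5, 40.1, 33.2 and 31.3, and at 40.7, 31.8, 35.9, 41.9 and 40.0. C1qc (chr4:136889804-136893065) was at 18.0, 19.7, 31.6, 26.2 and 25.4, and at 33.3, 26.1, 34.2, 34.5 and 34.4. Placebo libraries 1 and 2 were lowest for all 3 genes, and placebo library 3 was inside the osimertinib range for each.

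The differences were 0.29 ± 0.15 for C1qa, 0.35 ± 0.16 for C1qb and 0.44 ± 0.15 for C1qc, with limma adjusted p of 0.175, 0.123 and 0.0566. C1qc crossed the threshold under several alternatives, among them without placebo library 3 (0.54, limma adjusted p = 0.0253), without osimertinib library 2 (0.51, limma adjusted p = 0.0481) and with atrial transcripts as a covariate (limma adjusted p = 0.0124). C1qb crossed it without placebo library 3 (limma adjusted p = 0.0425). The ratio of C1qb to C1qc, which does not depend on library scaling, was 1.25 ± 0.0482 in placebo and 1.17 ± 0.0730 in osimertinib (SD, n = 5 each) and stayed between 1.05 and 1.29. The ratio of C1qa to C1qc was 1.46 ± 0.0775 and 1.32 ± 0.0925. C1qc itself ran from 18.0 to 34.5 rescaled CPM over the same libraries.

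None of the 6 Fc receptors and their signalling partners was called, and their differences lay between -0.17 and 0.23. Fcgr2b, the inhibitory Fc receptor, had the lowest: it was at 8.88, 8.77, 10.2, 6.75 and 4.65 rescaled CPM in placebo and at 6.85, 6.64, 5.46, 6.43 and 8.54 in osimertinib. Placebo libraries 1 to 3 lay above every osimertinib library and placebo library 5 below them all (-0.17 ± 0.19, limma adjusted p = 0.551), and the sign was opposite on the deposited scale, at 0.08. The activating receptors Fcgr1 and Fcgr3 gave 0.15 ± 0.18 and 0.23 ± 0.17. The adaptor genes Fcer1g and Tyrobp gave 0.05 ± 0.15 and 0.17 ± 0.20, and Trem2, a lipid receptor that signals through Tyrobp, gave -0.11 ± 0.20, with 0.13 on the deposited scale. All 5 osimertinib libraries lay under the placebo mean for Trem2, but 1 placebo library, number 5, at 4.34 rescaled CPM, raised that mean. Without it the difference was 0.05.

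Uptake genes held 1 called gene in each direction. Mertk, the receptor that binds dying cells through Gas6 and protein S (chr2:128698956-128802894), was at 13.4, 14.9, 11.7, 12.5 and 8.98 rescaled CPM in placebo and at 9.24, 9.88, 5.70, 9.87 and 6.65 in osimertinib. Placebo library 5 was the only placebo library within the osimertinib range. The means were 12.3 ± 2.19 and 8.27 ± 1.96 (SD, n = 5 each), and the difference was -0.56 ± 0.18 (limma adjusted p = 0.0435). On the deposited scale it was -0.29 with a limma adjusted p of 0.649, and in CPM without mitochondrial genes, their copies and haemoglobin -0.77 with a limma adjusted p of 0.0358, so Mertk kept its sign under these scalings.

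The Mertk call stood when placebo library 5 (-0.66, limma adjusted p = 0.0293) or osimertinib 1, 2 or 4 was left out and was lost for each of placebo 1 to 4 and osimertinib 3 and 5, where limma adjusted p lay between 0.0537 and 0.109. Adgre1 (chr17:57358691-57483527) was at 2.15, 2.16, 2.69, 2.75 and 4.85 in placebo and at 4.59, 5.02, 3.59, 4.76 and 4.70 in osimertinib. Placebo library 5 again lay with the osimertinib libraries, apart from the other 4. The means were 2.92 ± 1.12 and 4.53 ± 0.547 (SD, n = 5 each), and the difference was 0.60 ± 0.19 (limma adjusted p = 0.0437) and 0.86 in the deposited CPM (limma adjusted p = 0.0557). Without placebo library 5 the Adgre1 difference was 0.79 (limma adjusted p = 0.0148), and without any of the other 9 libraries the call was lost, with limma adjusted p between 0.0611 and 0.103.

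Cd14, a coreceptor for bacterial lipopolysaccharide, and Cd68, a lysosomal glycoprotein, gave 0.07 ± 0.19 and 0.13 ± 0.19. Both had the opposite sign, -0.11 and -0.05, in CPM without mitochondrial genes, their copies and haemoglobin.

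No integrin or leukocyte membrane gene was called. Laptm5, a lysosomal membrane protein of blood cells, was the most abundant of the 5 per length, at 12.9 to 22.4 rescaled CPM in placebo and 19.9 to 24.0 in osimertinib (0.25 ± 0.15). Cd53, a tetraspanin, gave 0.27 ± 0.19, and the integrin chains Itgam and Itgb2 gave 0.03 ± 0.22 and 0.10 ± 0.14. Itgam shares 67.2% of its 31-base words with the annotated gene Gm49368, so its reads are uncertain. Ptprc, the leukocyte antigen CD45, varied most of the tested genes in placebo: it was at 7.99, 13.3, 9.07, 6.10 and 2.48 in placebo and at 6.20, 9.63, 5.94, 6.41 and 5.57 in osimertinib. The placebo libraries alone spanned a 5.36-fold range, and the SE was the largest of the list (-0.05 ± 0.33), while the sign was opposite on the deposited scale, at 0.17.

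Of the killing and oxidase genes Lyz2 was called. Lyz2, the lysozyme of macrophages (chr10:117277331-117282321), was at 61.1, 53.8, 83.8, 77.7 and 97.0 rescaled CPM in placebo and at 107, 89.2, 98.9, 127 and 113 in osimertinib. Placebo library 5 lay inside the osimertinib range and the other 4 placebo libraries lay below it. The means were 74.7 ± 17.4 and 107 ± 14.2 (SD, n = 5 each), and the difference was 0.54 ± 0.16 (limma adjusted p = 0.0389) and 0.82 in the deposited CPM (limma adjusted p = 0.101). The call stood when placebo 3, 4 or 5 or osimertinib 2 was left out and was lost for each of the other 6, where limma adjusted p lay between 0.0550 and 0.0924. Lyz2 shares 32.8% of its 31-base words with Lyz1, which was at a mean of 1.39 rescaled CPM.

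For all 4 called genes placebo library 5, the library rich in mitochondrial reads, was thus the single placebo library within the osimertinib range, and all 4 differences were larger without it than with it. Without this library 5 genes of the list were called, these 4 and Mrc1, while 17.7% of all tested genes were called. Cybb, the catalytic subunit of the phagocyte NADPH oxidase, ran from 1.64 to 3.89 rescaled CPM in placebo and from 3.04 to 4.05 in osimertinib (0.38 ± 0.19, limma adjusted p = 0.146). Its partner Cyba, which other cells of the heart also express, gave 0.01 ± 0.13, and the pore-forming gene Mpeg1 gave 0.19 ± 0.17. Spi1 was at 4.52 to 7.43 in placebo and 4.75 to 6.97 in osimertinib, with a difference of -0.00 ± 0.15, and Aif1, an actin-binding protein, gave 0.24 ± 0.18.

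Per kilobase of exon, Lyz2 had the highest mean level over the 10 libraries, at 69.0 rescaled CPM, followed by C1qa at 37.6, C1qb at 31.4, Cyba at 30.0 and C1qc at 14.7. Cbr2 and Pf4 came next, at 11.9 and 11, and the monocyte genes Plac8 and Ly6c2 were lowest, at 0.273 and 0.274. The resident marker Lyve1 was at 4.14 per kilobase, Cd163 at 1.22, Timd4 at 0.504 and Ccr2 at 0.350. Lyve1, Cd163 and the C1q genes thus stood above the recruited genes per length.

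Summed over the 38 genes, the level was 333, 372, 483, 430 and 466 rescaled CPM in placebo and 508, 442, 466, 559 and 495 in osimertinib. The means were 417 ± 63.2 and 494 ± 44.6 (SD, n = 5 each), and the groups overlapped through placebo libraries 3 and 5. As a share of all reads the genes took 0.0393% ± 0.0121 in placebo and 0.0549% ± 0.00660 in osimertinib (SD, n = 5 each), counted over all reads, mitochondrial ones included. Abundant genes weigh most in the sum and in the share. Lyz2 alone had means of 74.7 rescaled CPM in placebo and 107 in osimertinib, and C1qa of 35.4 and 42.7. Placebo library 1 held the lowest value for 19 of the 36 tested genes, while osimertinib library 4 held the highest for 12 and placebo library 3 for 8. Without placebo library 1 the median difference of the list was 0.13 and none of its genes was called, 6 being at an unadjusted p under 0.05 in limma. In that fit 7.00% of all tested genes were called, against 20.8% with every library. In 15 of the 36 genes all osimertinib libraries lay above the placebo mean, in 2, Mertk and Trem2, all lay below it, and in 19 they lay on both sides. Such counts were not made over all tested genes, so they describe the list alone.

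**Figure D4:**
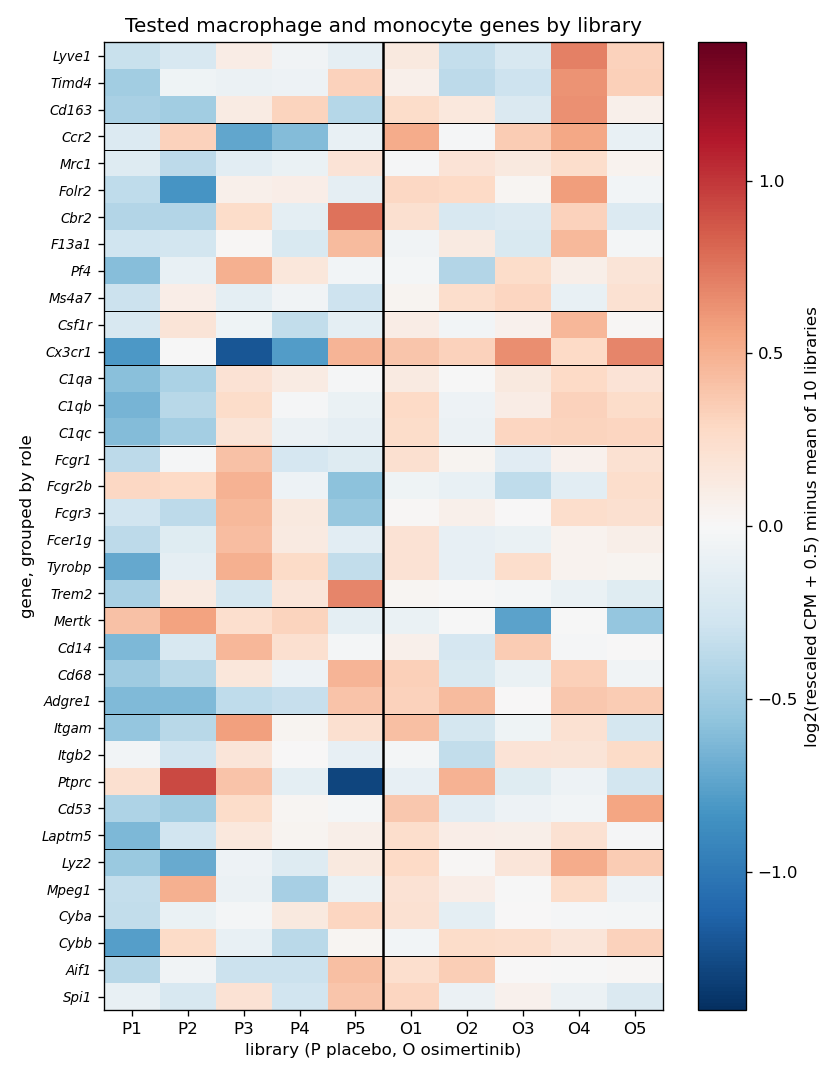
Heat map of the 36 tested genes (rows, grouped by role) in the 10 libraries (columns, P placebo and O osimertinib), coloured by log2(rescaled CPM + 0.5) minus the gene's mean over the libraries. Placebo library 1 is lowest in 19 rows and osimertinib library 4 highest in 12, and the C1q rows are alike in colour.

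Genes that act with the list were taken from lists of partners, whose counts stand beside the 10.4% of all genes called higher and the 10.5% called lower after rescaling, and the 6.62% and 0.13% in the deposited CPM. Of 14 tested growth factor and attractant genes 1 was called higher and 1 lower. The lower one, Csf2rb, the shared chain of the GM-CSF receptor, fell by 0.62. The differences of this list reached 0.92, and in the deposited CPM 1 of its genes was called higher and none lower. Of 13 tested myeloid transcription factors Klf4 fell by 0.74, and Klf4 is also a gene of endothelium. Of 12 tested genes of ITAM and Fc receptor signalling 2 fell, the kinase gene Syk by 0.54 and the phosphatase gene Inpp5d by 0.40. Csf2rb, Klf4, Syk and Inpp5d were not called in the deposited CPM. The calls for Klf4, Syk and Inpp5d stood in 6 of the 10 fits that left out 1 library, and that for Csf2rb in 2. Those for Klf4, Syk and Inpp5d were lost for placebo 1, placebo 2, osimertinib 3 and osimertinib 5 alike. Without each of those libraries 4.22% to 7.00% of all tested genes were called, against 20.8% with every library.

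Of 9 tested complement genes outside C1q, C3, the central component, rose by 0.92 ± 0.27 (limma adjusted p = 0.0349, and 1.20 in the deposited CPM), from 39.5 to 79.0 rescaled CPM in placebo to 70.0 to 208 in osimertinib. Cfp, which encodes the stabilising factor properdin, fell by 0.73, from 11.7 to 15.0 in placebo to 4.98 to 10.2 in osimertinib (limma adjusted p = 0.0181, and 0.402 in the deposited CPM), without overlap. Of 13 tested uptake and lysosomal genes 3 were higher and 2 lower. The lysosomal genes Lamp1, Ctss and Lgmn rose by 0.52, 0.48 and 0.46, with limma adjusted p of 0.0182, 0.0316 and 0.0306, and none of these 3 was called in the deposited CPM (limma adjusted p of 0.120, 0.119 and 0.136). The scavenger receptor gene Stab1, known from macrophages and endothelium, fell by 0.67, from 141 to 152 rescaled CPM in placebo to 68.2 to 115 in osimertinib (limma adjusted p = 0.0161, and 0.542 in the deposited CPM). Cfp and Stab1 were called without each of the 10 libraries, Lamp1 in 9 of 10 such fits (not without osimertinib 3), Lgmn in 6, C3 in 5 and Ctss in 4. The other gene called lower was Elmo1, which lies outside the rule for named genes and was named after its value was seen. Of 11 tested inflammatory and repair products none was called by limma after rescaling, 2 being at an unadjusted p under 0.05, and 1, Gpnmb, named after its value was seen, was called higher in the deposited CPM. Their most abundant genes gave 0.31 ± 0.25 for Apoe and -0.26 ± 0.14 for Tgfb1, which had 0.02 on the deposited scale. Of 6 tested NADPH oxidase partners 1 was called lower after rescaling and none in the deposited CPM. The median difference was 0.29 for the complement list, 0.12 for transcription factors and 0.02 for growth factor and attractant genes. It was 0.01 for uptake genes and for oxidase partners, -0.07 for inflammatory and repair products and -0.11 for ITAM signalling, against 0.01 for all genes.

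Markers of lymphocytes and neutrophils were scarce. The 8 T cell genes summed to at most 3.43 rescaled CPM in any library and the 6 NK cell genes to at most 1.08, and none of either list could be tested. The 5 B cell genes summed to 1.85 to 5.73 and the 9 neutrophil genes to 1.34 to 10.8, with no gene called, and Ngp, a granule protein gene of neutrophils, was at 0 in every library. Of 2 tested dendritic cell genes Zbtb46, which endothelium also expresses, fell by 0.75 (limma adjusted p = 0.0106), from 28.4 to 43.7 in placebo to 19.3 to 24.8 in osimertinib, and in the deposited CPM it was not called (limma adjusted p = 0.419).

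Among the markers of the other cells of the ventricle single genes were called, in both directions, and most were not. Beside the counts of all marker lists stand the 10.4% of all genes called higher and the 10.5% called lower after rescaling. In the deposited CPM these shares were 6.62% and 0.13%. Of 7 blood endothelial genes Egfl7 and Tie1 fell by 0.76 and 0.38, but neither was called in the deposited CPM (-0.47 and -0.09, limma adjusted p of 0.420 and 0.905), where 5 of the 7 differences were positive, and the list summed to 1256 to 1928 rescaled CPM in placebo and 1177 to 1442 in osimertinib. Of 7 fibroblast genes Gsn rose by 0.86, with sums of 1111 to 1745 and 1720 to 4231, and of 7 cardiomyocyte genes Actc1 and Pln rose by 1.47 and 0.98, with sums of 12513 to 27101 and 22554 to 37967. Gsn, Actc1 and Pln were called higher in the deposited CPM as well (1.15, 1.76 and 1.27), and 4 of the 7 cardiomyocyte genes were. None of 3 tested mast cell, 4 erythroid, 5 smooth muscle and pericyte, 5 atrial and 3 adipocyte genes was called by limma after rescaling, 1 of them, the atrial peptide gene Nppa, being at an unadjusted p under 0.05, and the single tested mesothelial gene, Wt1, fell by 0.63. On the deposited scale 2 atrial genes and 1 adipocyte gene were called higher and Wt1 was not called (-0.37, limma adjusted p = 0.544). Some of these cells are known to express genes of the list or of its partners as well, and their part in the values above was not tested. When each library was left out in turn, Actc1 and Egfl7 were still called in 5 of 10 fits, Pln in 4, Tie1 in 2 and Gsn and Wt1 in 1 (without placebo library 5), and Zbtb46 in all 10.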

How the data were processed

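Poly(A) RNA of 10 left ventricular libraries was sequenced. The deposited values are CPM, scaled by the authors to the total of each library with no further factor between them. The design text names STAR on GRCm38, RSEM and the nf-core pipeline; the submitters' processing notes instead name cutadapt 1.9, HISAT2 2.0.4, StringTie 1.3.4d, DESeq2 and a human build. Which of them made the table was not settled. Of the gene identifiers 98.8% matched GENCODE M21, the source of symbols and positions.

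Each library's depth was read from the step between its low values. Of the values under 200 reads, 90.7% to 93.4% lay within 0.01 of a whole read, as estimated counts would be, so no count test was run. CPM were divided by each library's median ratio to the geometric mean library. The 12350 genes that reached 1 CPM in 5 or more libraries were tested with limma 3.58.1 in R 4.3.3, two-sided, with an intensity trend on log2(CPM + 0.5), a scale that understates changes of low genes, and Benjamini-Hochberg adjustment over all of them. The script was tested on simulated data. In the deposited CPM the variance prior weighed 72.9 degrees of freedom against 4.45 after rescaling, so a gene's own spread counted less there. All 45 pairs of libraries differed by more than sampling noise (chi-square per degree of freedom at least 23.8).

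The genes, their role groups, the partner lists and the rule for named genes were chosen with earlier results of these data known. All 38 genes are named. From each further list up to 4 called genes with the lowest p, or otherwise the 2 most abundant, could be named. Some genes of these lists are not reported here. Gene sums, scores and ratios were given without a test. Alternatives were no filter, a filter at a mean of 5 CPM, pseudocounts of 0.1 and 2, array weights, no trend, a block for the replicate number, quantile normalization, voom on estimated reads, atrial transcripts as a covariate, CPM without mitochondrial genes, their copies and haemoglobin, and leaving out each library.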

Additional observations from a re-analysis of the deposited data

Results flagged for a closer look

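In a group of 5 libraries a value was singled out when its gap to the nearest other value, divided by the range of the group, was above 0.710. Of 78 groups of values, 5 met this, and chance gives about 1 in 20 groups. Osimertinib library 4 had 37.2 rescaled CPM of Csf1r, against 26.0 to 28.7 in the other 4 osimertinib libraries, and 0.0663% of its reads on the 38 genes, against 0.0498% to 0.0540%. Osimertinib library 2 had the lowest C1qc of its group, 26.1 against 33.3 to 34.5, and the highest Ptprc, 9.63 against 5.57 to 6.41. Placebo library 5 had 4.85 rescaled CPM of Adgre1, against 2.15 to 2.75 in the other 4 placebo libraries.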

How the results depend on the processing

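After rescaling, the count of called genes, 4 in the main fit, was between 3 and 5 under both pseudocounts, a mean of at least 5 CPM, no trend, array weights, the replicate block, quantile normalization, voom and the atrial covariate. Between 18.3% (no trend) and 39.2% (atrial covariate) of all genes were called in these fits. At a mean of at least 5 CPM Cx3cr1 and Adgre1 were not tested, so the genes called there were not the same. The count was 1 in CPM without mitochondrial genes, their copies and haemoglobin (Mertk), where 19.5% of all genes were called. In the deposited CPM it was 1 (Cx3cr1), against 6.74% of all genes. With no filter on low values it was 0, against 5.67% of all 21622 genes. There 9 genes of the list were at an unadjusted p under 0.05 in limma. Leaving out each library gave 0 to 5 calls. The count was 0 when placebo 1, placebo 2, osimertinib 3 or osimertinib 5 was left out. There 6, 9, 7 and 7 genes of the list were at an unadjusted p under 0.05 in limma. Of all tested genes 7.00%, 6.43%, 4.22% and 5.72% were called in these fits, against 20.8% with every library. The count was 1 without placebo library 4 or osimertinib library 1, and 2 without osimertinib library 4. Of all genes 21.0%, 22.5% and 20.7% were called there. In the deposited CPM the 1 called gene became 2 with a pseudocount of 2 and 6 with array weights. Of all genes 7.89% and 20.9% were called there. With no filter the count was 0, and none of all 21622 genes was called. At a mean of at least 5 CPM, which leaves out Cx3cr1, it was 0 as well, against 9.43% of all genes. In these fits 10 and 4 genes of the list were at an unadjusted p under 0.05 in limma. Without each library in turn the count was 1 to 4. It was 4 without placebo library 2 and 3 without placebo library 5, where 9.12% and 6.52% of all genes were called. The median difference of the list, 0.21, was 0.033 in CPM without mitochondrial genes, their copies and haemoglobin, 0.45 in the deposited CPM and 0.13 to 0.25 without each library.

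The replicate number as a block gave 5 calls after rescaling, C1qc (limma adjusted p = 0.0348) beside the 4, and 2 in the deposited CPM. Of all genes 23.9% and 10.7% were called with the block. Same-numbered libraries correlated at 0.43, 0.24, 0.46, -0.34 and -0.16 for numbers 1 to 5, and those of numbers 1, 2 and 3 alone correlated best with their own number, while those of 4 and 5 did not, so the numbers were not taken to pair the libraries.

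None of the 4 called genes, and none of the called partner and marker genes that were followed, changed sign under any alternative run on it. Elmo1 was not among those followed. Genes with small differences did. In CPM without mitochondrial genes, their copies and haemoglobin the difference was -0.11 for Cd14, -0.18 for Cyba, -0.077 for F13a1, -0.15 for Pf4, -0.14 for Fcer1g, -0.00561 for Tyrobp, -0.079 for Itgb2, -0.14 for Itgam and -0.052 for Cd68. In the deposited CPM it was 0.26 for Spi1, 0.17 for Ptprc, 0.13 for Trem2, 0.082 for Fcgr2b and 0.26 for Cbr2. Cbr2 was at 0.089 with array weights and 0.0147 with voom, Cyba at -0.00344 with quantile normalization, and Spi1 at 0.080 with array weights, 0.0261 with voom, 0.00733 with no filter and 0.000267 with a pseudocount of 0.1. Without each library in turn the ranges were -0.13 to 0.17 for Cbr2, -0.077 to 0.20 for Cd14, -0.070 to 0.092 for Cyba, -0.035 to 0.17 for Fcer1g, -0.095 to 0.18 for Itgam, -0.11 to 0.16 for Pf4, -0.38 to 0.17 for Ptprc, -0.078 to 0.099 for Spi1 and -0.24 to 0.049 for Trem2. The cause of these moves was not tested. Few reads lie behind Plac8 (1 to 18 per library) and Timd4 (13 to 38).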
